A study of Mus musculus with 24 samples.

Results

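The genes examined here are 10 members of the growth hormone pathway in hepatocytes, which are the receptors Ghr and Prlr, the transcription factors Stat5a, Stat5b, Bcl6 and Cux2, the feedback inhibitors Socs2 and Cish, and the secreted products Igf1 and Igfals. They were taken by gene symbol from count and FPKM tables of 55421 genes, and 9 of the 10 passed the expression filter and were tested among 13847 genes. Cux2 did not pass and is described separately. RNA came from hepatocytes of C57BL/6J male mice, isolated by 2-step liver perfusion. From an age of 4 months all animals ate food with vehicle or with 42 ppm of encapsulated rapamycin (eRapa), an inhibitor of the kinase mTOR. At 18 months the vehicle animals stayed on normal diet (ND+veh, n = 8) or were switched to a high-fat diet with 60% of calories from fat (HFD+veh, n = 7), and the eRapa animals were switched to the same high-fat diet with eRapa (HFD+eRapa, n = 9), each for 9 weeks. There was no group on normal diet with eRapa, and eRapa began before the high-fat diet, so that its action on the diet response and its action without that diet cannot be told apart.

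Growth hormone binds its receptor on hepatocytes, the receptor-bound kinase JAK2 phosphorylates STAT5, and STAT5 enters the nucleus and induces Igf1, Igfals, Socs2 and Cish. SOCS2 and CISH then dampen the receptor, while IGF1 circulates, bound by IGF binding proteins and the acid-labile subunit encoded by Igfals. In rodents the pituitary releases growth hormone in pulses in males and more evenly in females, and STAT5b, with BCL6 and CUX2 as repressors, turns that pattern into male-biased and female-biased gene expression in liver.

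Libraries held 17.7 to 25.9 M counts (M, 1000000). Summed CPM (counts per M, scaled by TMM factors) of 10 hepatocyte markers ran from 56518 to 167579 across libraries. Markers of other cell types were also read in most libraries. The labels number the libraries as replicates without stating that each was a separate mouse, so p-values measure the spread between libraries. In bulk RNA, fewer cells of a type and less RNA per cell cannot be told apart.

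STAT5 dimers bind the palindrome TTCNNNGAA. It was searched on both strands of RefSeq promoter windows (GRCm38.p6, from 250 bases before to 50 bases after a start site), which were present for 9 members as 18 windows. Socs2 had no window, so it was not searched. Of all 32851 windows, 8.3% held the motif and 0.457% held it at least 2 times, with 11 windows holding it 3 times or more. The sites below are shown because they lie beside starts of a feedback inhibitor, a repressor, a receptor and an IGF1 carrier whose transcripts are described next. They are written 5′ to 3′ on the strand of the gene, with the letters that match the motif in capitals.
Cish, chr9:107296654-107296683, plus strand: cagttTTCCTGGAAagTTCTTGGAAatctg
Bcl6, chr16:23981432-23981461, minus strand: aggccgcggcTTCCTGGAAagttacttctc
Bcl6, chr16:23981386-23981415, minus strand: ggcaggagtgTTCTGTGAAatccttagagc
Bcl6, chr16:23981352-23981381, minus strand: atcgactacgTTCCGGGAAtgagagggctg
Prlr, chr15:10223786-10223815, plus strand: gcaaaatgagTTCTAGGAAtaagggatatc
Igfals, chr17:24878163-24878192, plus strand: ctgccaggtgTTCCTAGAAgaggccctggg
In Cish the first capital is base 1 of the transcript start and 2 copies of the motif follow each other. The 3 sites of Bcl6 lie in a single window and begin at bases -168, -122 and -88 from the start. The Prlr site begins at base -110, and the Igfals site shown at base -58. A further match of Igfals, at base -236, and a further match of Bcl6, at base -118, lie at other start sites and are not printed. No TTCNNNGAA was in the windows of Ghr, Stat5a, Stat5b, Igf1 and Cux2. A match of these letters is a description and not evidence of binding.

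Per kilobase of transcript, Igf1 and Ghr were the most abundant of the 10 transcripts in every group. In ND+veh the mean FPKM was 304 ± 45.9 for Igf1 and 210 ± 33.4 for Ghr (SD, n = 8). Prlr (41.0 ± 19.3) and Igfals (38.5 ± 13.2) came next and did not differ beyond their spread. Stat5b (12.9 ± 3.06), Socs2 (12.7 ± 12.4), Cish (10.5 ± 7.48), Bcl6 (5.59 ± 6.48) and Stat5a (3.96 ± 1.52) followed, each overlapping its neighbour within 1 SD, and Cux2 was the lowest, at 0.252 ± 0.156. In HFD+veh (n = 7) Socs2 (2.67 ± 1.21) and Cish (2.89 ± 1.19) dropped below Bcl6 (3.42 ± 2.2) and Stat5a (3.71 ± 0.690) in mean FPKM, with overlapping spread, while Igf1 stood at 378 ± 87.6. In HFD+eRapa (n = 9) Stat5b (11.04 ± 2.02), Socs2 (8.74 ± 3.50) and Cish (8.30 ± 5.74) again overlapped.

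The effect of the high-fat diet was read from HFD+veh and ND+veh, that of eRapa on this diet from HFD+eRapa and HFD+veh, and HFD+eRapa was also set beside ND+veh. Changes are given as log2 fold changes (log2FC) with a standard error (SE). Of the 9 members tested, 4 passed the test for HFD+veh against ND+veh (called, edgeR adjusted p under 0.05), of which Igf1 was higher and Socs2, Cish and Stat5b were lower in HFD+veh. Across all genes tested 25.9% were called. Between HFD+eRapa and HFD+veh 4 members were called, and Ghr, Stat5a, Socs2 and Cish were all higher in HFD+eRapa, against 32.0% of all genes called and 10.9% called higher. Between HFD+eRapa and ND+veh only Igf1 was called, against 13.5% of all genes. The median log2 fold change of the 9 members was -0.19, 0.41 and -0.08 in these comparisons, beside 0.05, -0.04 and -0.03 over all genes. The first and second comparisons share the HFD+veh libraries, so opposite signs in them are not independent of each other.

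**Figure D1:**
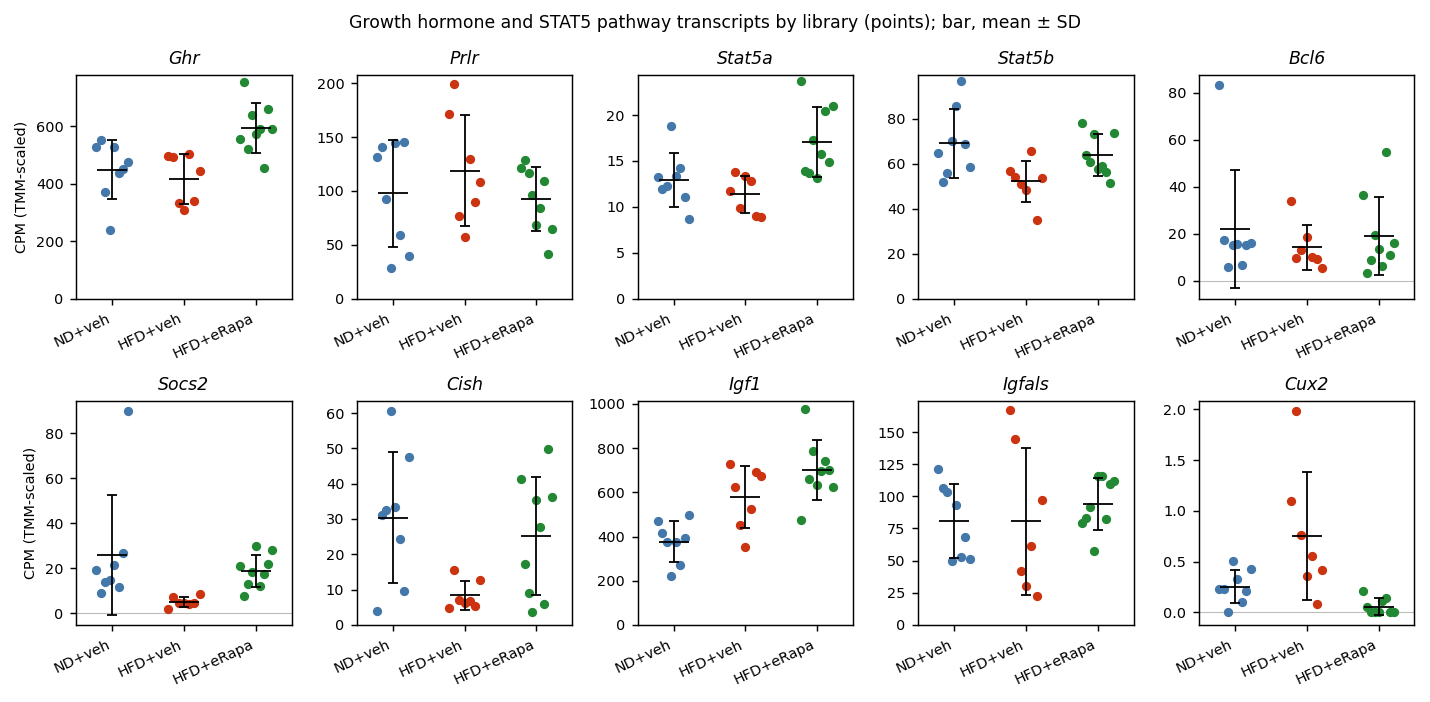
CPM (TMM-scaled, linear axes) of the 10 genes in each of 24 libraries, by group, with the mean and SD as a bar. All 7 HFD+veh libraries lie below all 8 ND+veh libraries for Socs2, whereas Igf1 is higher in both high-fat groups and Cux2 stays under 2 CPM.

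Socs2, which encodes a feedback inhibitor of the growth hormone receptor, had the largest changes among the members tested in both comparisons with HFD+veh. The gene lies at chr10:95385362-95417180 on the minus strand (GRCm38). Its CPM in ND+veh was 8.92 at the lowest, 17.04 at the median and 89.8 at the highest. In HFD+veh it was 2.09, 4.58 and 8.62, and in HFD+eRapa 7.66, 18.2 and 29.8. The HFD+veh libraries did not overlap with ND+veh, which held for 2.44% of all genes, and 8 of 9 HFD+eRapa libraries lay above the highest HFD+veh library. Socs2 fell in HFD+veh, with a log2FC of -2.32 (edgeR adjusted p = 0.00099, SE 0.44). It was 3.64-fold higher in HFD+eRapa than HFD+veh (log2FC 1.86, edgeR adjusted p = 0.0027, SE 0.42). HFD+eRapa and ND+veh differed by -0.46 (edgeR adjusted p = 0.49, SE 0.38), and this value changed sign to 0.17 without ND+veh replicate 8, the library at 89.8 CPM. The calls of the first and second comparisons remained in each of 15 and 16 fits that left out 1 library, and without ND+veh replicate 8 the fall in HFD+veh was -1.69.

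Cish, a second feedback inhibitor of the same family, had the same order of group means but wider spread. It is annotated at chr9:107296026-107302784 on the plus strand. CPM was 3.97, 31.8 and 60.6 in ND+veh (lowest, median, highest), 4.70, 6.76 and 15.6 in HFD+veh, and 3.56, 27.6 and 49.9 in HFD+eRapa. The groups overlapped, since ND+veh replicates 1 and 7 and HFD+eRapa replicates 3, 4 and 7 lay below the highest HFD+veh library. Cish fell in HFD+veh by a log2FC of -1.86 (edgeR adjusted p = 0.016, SE 0.54) and was higher in HFD+eRapa than HFD+veh by 1.59 (edgeR adjusted p = 0.024, SE 0.52). The latter call was lost without HFD+veh replicate 4 (edgeR adjusted p = 0.0502) or replicate 6 (0.0537). Between HFD+eRapa and ND+veh the difference was -0.27 (edgeR adjusted p = 0.78, SE 0.48). In limma fits of log2(FPKM + 1) both calls of Cish were lost, with log2 fold changes of -1.29 (adjusted p = 0.0537) and 0.99 (adjusted p = 0.120).

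**Figure D2:**
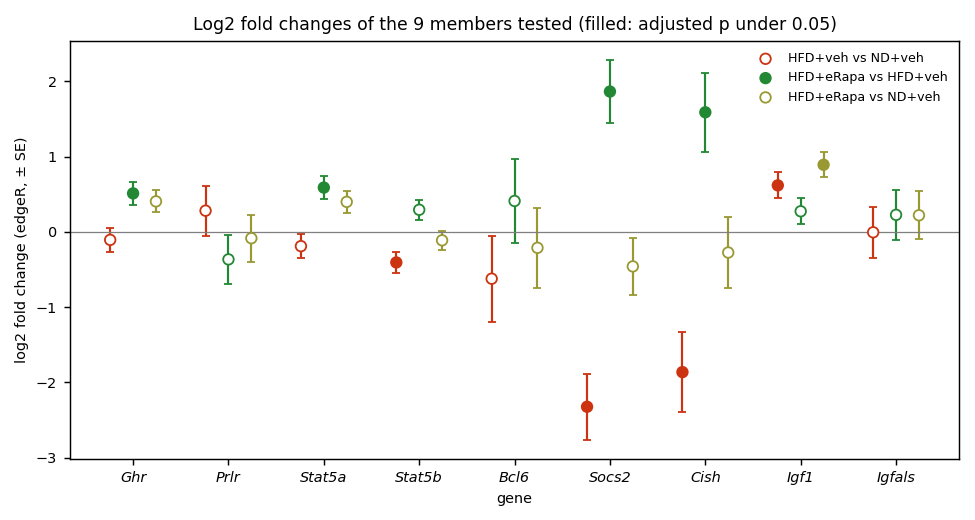
Log2 fold changes from edgeR with their SE for the 9 members tested in 3 comparisons, with filled symbols for an adjusted p under 0.05. Socs2 and Cish lie at -2.32 and -1.86 in HFD+veh against ND+veh and at 1.86 and 1.59 in HFD+eRapa relative to HFD+veh, while Igf1 is above 0 in all 3 comparisons.

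Igf1, the secreted growth factor induced by growth hormone, did not fall in HFD+veh as Socs2 and Cish did. The gene is at chr10:87858265-87937042 on the plus strand. Its CPM was 223, 383 and 498 in ND+veh (lowest, median, highest), 355, 626 and 727 in HFD+veh, and 477, 694 and 976 in HFD+eRapa. Of the HFD+veh libraries 5 of 7 exceeded the highest ND+veh library, and 8 of 9 HFD+eRapa libraries did so. Igf1 rose 1.53-fold in HFD+veh (log2FC 0.62, edgeR adjusted p = 0.014, SE 0.17) and stood 1.85-fold above ND+veh in HFD+eRapa (0.89, SE 0.17, edgeR adjusted p = 0.00063). The difference between HFD+eRapa and HFD+veh was 0.27 (edgeR adjusted p = 0.23, SE 0.17). The rise in HFD+veh was not called without HFD+veh replicate 6 (edgeR adjusted p = 0.0510), and the limma fit of log2(FPKM + 1) gave 0.29 (adjusted p = 0.129). The higher level in HFD+eRapa than in ND+veh was called in all 17 fits without 1 library and in the FPKM fit (0.59, limma adjusted p = 0.0032).

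Igfals, whose product holds IGF1 in a large circulating complex, showed no call. CPM was 50.1, 80.8 and 122 in ND+veh, 22.3, 61.0 and 167 in HFD+veh, and 57.9, 91.4 and 116 in HFD+eRapa, so that HFD+veh spanned both other groups. The log2 fold changes were -0.01 (SE 0.34), 0.23 (SE 0.33) and 0.22 (SE 0.32) in the 3 comparisons, with edgeR adjusted p of 0.99, 0.63 and 0.73.

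The level of Socs2 relative to Igf1 within a library was lowest in HFD+veh. The log2 ratio of Socs2 to Igf1 counts (0.5 added to each) had a mean and SD of -4.22 ± 0.888 in ND+veh, -6.88 ± 0.771 in HFD+veh and -5.30 ± 0.828 in HFD+eRapa. It ran from -5.53 to -2.47 in ND+veh and from -8.43 to -6.27 in HFD+veh, without overlap. The log2 ratio of Igf1 to Ghr counts was -0.25 ± 0.262, 0.46 ± 0.316 and 0.23 ± 0.254 in the same order of groups. Ratios were not tested, because they reuse the counts of the gene-wise tests.

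**Figure D3:**
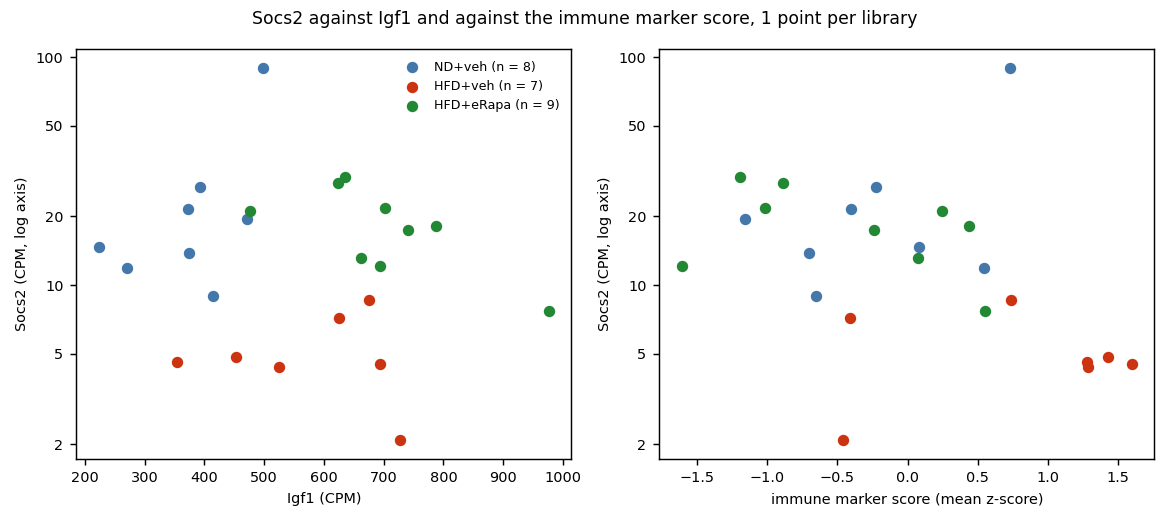
Socs2 (CPM, log axis) against Igf1 (CPM, left) and against the immune marker score (mean z-score of 19 genes, right), with 1 point per library and colours for the 3 groups. HFD+veh libraries lie at 2.09 to 8.62 CPM of Socs2 over Igf1 levels of 355 to 727 CPM, and their immune scores run from -0.464 to 1.60.

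Receptor transcripts changed less. Ghr, the growth hormone receptor (chr15:3317760-3583492, minus strand), had CPM of 239, 465 and 553 in ND+veh, 307, 443 and 503 in HFD+veh, and 455, 592 and 755 in HFD+eRapa. Only HFD+eRapa replicate 7 lay below the highest HFD+veh library. Ghr did not pass the test in HFD+veh against ND+veh (log2FC -0.11, edgeR adjusted p = 0.64, SE 0.16). It was 1.43-fold higher in HFD+eRapa than HFD+veh (0.51, SE 0.15, edgeR adjusted p = 0.013), a call present in all 16 fits without 1 library. Against ND+veh the HFD+eRapa value was 0.40 (edgeR adjusted p = 0.069, SE 0.15), and it passed without HFD+eRapa replicate 7 (0.0497). Prlr, the prolactin receptor, which also signals through STAT5, ranged from 28.2 to 200 CPM over all libraries, with medians of 112, 108 and 96.1 in ND+veh, HFD+veh and HFD+eRapa. Its log2 fold changes of 0.28, -0.37 and -0.08 had SE of 0.31 to 0.33 and edgeR adjusted p of 0.55, 0.41 and 0.91.

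The paired transcription factor genes Stat5a and Stat5b lie on opposite strands of chromosome 11, with 8626 bases between them. Stat5b, which carries most STAT5 activity in hepatocytes, had 51.6, 66.6 and 96.5 CPM in ND+veh, 35.0, 53.6 and 65.7 in HFD+veh, and 51.3, 60.7 and 78.2 in HFD+eRapa. It fell in HFD+veh by a log2FC of -0.41 (edgeR adjusted p = 0.031, SE 0.14), with 3 of 7 HFD+veh libraries below the lowest ND+veh library. That call was lost without HFD+veh replicate 3 (edgeR adjusted p = 0.0508), 4 (0.0530) or 6 (0.0666) and without ND+veh replicate 5 (0.0664) or 6 (0.0742). The Stat5b value for HFD+eRapa relative to HFD+veh was 0.29 (edgeR adjusted p = 0.092, SE 0.13), and it passed without HFD+veh replicate 5 (0.0488).

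Stat5a had 8.63, 12.8 and 18.8 CPM in ND+veh, 8.94, 11.7 and 13.8 in HFD+veh, and 13.1, 15.8 and 23.7 in HFD+eRapa. Of the HFD+eRapa libraries 7 of 9 exceeded every HFD+veh library. Stat5a was 1.5-fold higher in HFD+eRapa than HFD+veh (log2FC 0.59, edgeR adjusted p = 0.0059, SE 0.15). The limma fit of log2(FPKM + 1) gave 0.23 for this difference (adjusted p = 0.334). HFD+veh and ND+veh differed by -0.19 (edgeR adjusted p = 0.38, SE 0.16). HFD+eRapa and ND+veh differed by 0.40 (edgeR adjusted p = 0.073, SE 0.15), which passed without ND+veh replicate 4 (0.0273). Annotated genes overlap Stat5a, Prlr, Bcl6, Cish, Igf1 and Cux2, and whether the counting used strand is not stated, so reads of overlapping genes cannot be told apart.

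Bcl6, a repressor that competes with STAT5 for its sites, gave no call. CPM was 5.96, 15.4 and 83.4 in ND+veh, 5.54, 10.1 and 33.8 in HFD+veh, and 3.35, 13.3 and 54.7 in HFD+eRapa. Log2 fold changes were -0.62 (SE 0.57), 0.41 (SE 0.56) and -0.21 (SE 0.53), with edgeR adjusted p of 0.43, 0.60 and 0.86. Without ND+veh replicate 1, the library at 83.4 CPM, the values against ND+veh became 0.07 for HFD+veh and 0.51 for HFD+eRapa.

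Cux2, a repressor expressed mainly in female liver, was near the limit of counting. The libraries held 0 to 16 reads of Cux2 in ND+veh, 2 to 45 in HFD+veh and 0 to 5 in HFD+eRapa, with 47, 114 and 11 reads in all. No read was counted in 1 ND+veh library and 5 of 9 HFD+eRapa libraries, where 3 counts, the limit that a count of 0 allows, correspond to less than 0.2 CPM. With no expression filter (30483 genes) Cux2 was lower in HFD+eRapa than HFD+veh by a log2FC of -3.46 (edgeR adjusted p = 0.0014, SE 0.70). Without HFD+veh replicate 2, which held 45 of the reads and was left out after seeing the data, the value was -2.97 (edgeR adjusted p = 0.0034). HFD+veh against ND+veh gave 1.51 (edgeR adjusted p = 0.12, SE 0.63), and 1.02 without that library (edgeR adjusted p = 0.30). HFD+eRapa against ND+veh gave -1.95 (edgeR adjusted p = 0.12, SE 0.70). The deposited FPKM of Cux2 did not follow these counts, with means of 0.252, 0.291 and 0.216, and in limma with no filter the difference between HFD+eRapa and HFD+veh was -0.09 on the log2(FPKM + 1) scale (adjusted p = 0.653).

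Markers of other cell types moved with the groups. Summed CPM of 12 macrophage markers was 48.9, 270 and 1300 in ND+veh (lowest, median, highest), 182, 2565 and 4775 in HFD+veh and 14.6, 200 and 1077 in HFD+eRapa. In HFD+veh against ND+veh 4 of these 12 were called higher, beside 16.0% of all genes, and in HFD+eRapa relative to HFD+veh 9 of 12 were called lower, beside 21.1%. The 8 endothelial markers had medians of 209.6, 415 and 127, and all 8 were lower in HFD+eRapa than HFD+veh. Median sums were 5.97, 86.2 and 6.49 CPM for 10 lymphocyte markers, 1.12, 24.1 and 2.83 for 7 neutrophil markers, 105 (ND+veh), 134 (HFD+veh) and 38.6 (HFD+eRapa) for 9 stellate cell markers, and 5.74, 106 and 20.8 for 6 cholangiocyte markers. No marker was at 0 in all libraries. The immune score, a mean z-score of 19 of these genes, ran from -1.16 to 0.730 in ND+veh, from -0.464 to 1.60 in HFD+veh and from -1.61 to 0.553 in HFD+eRapa.

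The median immune score of HFD+veh was 1.27, above the highest of ND+veh (0.730) and of HFD+eRapa (0.553). Score and group thus went partly together. Calls kept or lost with this covariate cannot tell other cell types from the groups themselves. With the immune score as a covariate Socs2 was still called in HFD+veh against ND+veh (log2 fold change -2.45, edgeR adjusted p = 0.0012) and in HFD+eRapa relative to HFD+veh (2.11, edgeR adjusted p = 0.013). HFD+veh replicates 1 and 2, whose immune scores lay within the ND+veh range, had 2.09 and 7.18 CPM of Socs2. Every HFD+veh library lay below all ND+veh libraries for Socs2, so these had to as well, and a cause was not tested. The Igf1 rise in HFD+veh was 0.67 in that fit (edgeR adjusted p = 0.028). The calls of Stat5b (-0.46, edgeR adjusted p = 0.058) and Cish (-1.69, 0.072) in HFD+veh were lost with this covariate, as were those of Ghr (0.40, 0.17), Stat5a (0.56, 0.059) and Cish (1.28, 0.26) in HFD+eRapa relative to HFD+veh. With a stromal score of 19 endothelial, stellate cell and cholangiocyte genes as the covariate, Socs2 remained called in both comparisons (edgeR adjusted p = 0.0012 and 0.027). In that fit Igfals was called, at 0.44 in HFD+veh against ND+veh (edgeR adjusted p = 0.046) and -0.63 in HFD+eRapa relative to HFD+veh (0.016). The stromal score has the same limit, with a median of 0.909 in HFD+veh beside highest values of 0.617 in ND+veh and 0.357 in HFD+eRapa.

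Other parts of the receptor signalling machinery, were followed in a list of 18 kinases, phosphatases, adaptors and regulators. In HFD+veh 7 were called higher and 2 lower than in ND+veh (median log2FC 0.32), beside 16.0% of all genes called higher and 9.86% lower. In HFD+eRapa relative to HFD+veh 1 was called higher and 9 lower (median -0.38), beside 10.9% of all genes called higher and 21.1% lower. Between HFD+eRapa and ND+veh none was called by edgeR, beside 13.5% of all genes, and none by DESeq2. At an unadjusted edgeR p under 0.05 there was 1 of 18. Jak2, the receptor-bound kinase, had mean CPM of 18.1 ± 2.03 in ND+veh, 24.9 ± 9.31 in HFD+veh and 16.5 ± 2.68 in HFD+eRapa (± SD). Its log2 fold change of 0.46 in HFD+veh (edgeR adjusted p = 0.045, SE 0.17) was called in 4 of 15 fits without 1 library, with the lowest value, 0.26 (edgeR adjusted p = 0.23), without HFD+veh replicate 6. Jak2 was lower in HFD+eRapa than HFD+veh by -0.59 (edgeR adjusted p = 0.0082, SE 0.16).

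The calls of these genes changed when marker scores, which went partly with the groups, were added. With the immune score as a covariate 0 of the 18 machinery genes were called in HFD+veh against ND+veh and 0 in HFD+eRapa relative to HFD+veh (3 and 1 at an unadjusted p under 0.05), and the Jak2 values became 0.12 and -0.19. Fewer of all genes were called in that fit too, as given in a later section. Lyn (29.7, 84.4 and 27.3 CPM on average) and Ptpn6 (20.7, 48.0 and 21.2 CPM), a kinase and a phosphatase abundant in leukocytes, were chosen after their values were seen and were highest in HFD+veh. Socs1, another inhibitor of cytokine receptors, stayed under 2 CPM in all libraries. It was lower in HFD+eRapa than HFD+veh (log2FC -1.85, edgeR adjusted p = 0.021, SE 0.60), a call lost without HFD+veh replicate 4 (-1.49, 0.077). Socs3, the inhibitor induced by inflammatory cytokines, had 9.13, 6.47 and 10.4 CPM on average, with log2 fold changes of -0.50, 0.69 and 0.19 (edgeR adjusted p = 0.18, 0.052 and 0.71).

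Onecut1, which encodes the hepatocyte factor HNF6 and is a known growth hormone-responsive gene, was chosen from the list after its values were seen. Its CPM was 5.55, 18.5 and 39.8 in ND+veh (lowest, median, highest), 2.18, 3.97 and 15.2 in HFD+veh, and 4.48, 26.6 and 81.6 in HFD+eRapa, with overlap between all groups. The log2 fold changes were -1.69 (edgeR adjusted p = 0.033, SE 0.57), which was called in 7 of 15 fits without 1 library, and 2.38 (edgeR adjusted p = 0.0042, SE 0.58), which was called in all 16. The latter call was lost with the immune or the stromal score as a covariate, as were those of the other machinery genes in that comparison.

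Among 17 further genes of the IGF axis, 11 passed the filter. In HFD+veh against ND+veh 1 was called higher and 4 lower (median -0.09), beside 16.0% of all genes called higher and 9.86% lower. In HFD+eRapa relative to HFD+veh 3 were higher and 3 lower (median 0.23), beside 10.9% and 21.1%. In HFD+eRapa against ND+veh 1 was higher and 4 lower (median -0.36), beside 6.93% and 6.54%. Igfbp2, a hepatic IGF binding protein, was 514 to 1150 CPM in ND+veh, 7.0 to 220 in HFD+veh and 219 to 538 in HFD+eRapa. HFD+veh did not overlap with ND+veh and reached 220 CPM where the lowest HFD+eRapa library was at 219. It fell in HFD+veh by -3.03 (edgeR adjusted p = 0.00027, SE 0.49) and was higher by 1.94 in HFD+eRapa than HFD+veh (edgeR adjusted p = 0.0036, SE 0.46), on the log2 scale.

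Igfbp1, an insulin-suppressed binding protein, had means of 197 ± 176, 27.5 ± 14.8 and 61.5 ± 49.9 CPM in ND+veh, HFD+veh and HFD+eRapa. It fell in HFD+veh by a log2FC of -2.84 (edgeR adjusted p = 0.0022, SE 0.58), and HFD+eRapa relative to HFD+veh was 1.16 (edgeR adjusted p = 0.10, SE 0.54). HFD+eRapa was below ND+veh by -1.68 (edgeR adjusted p = 0.029, SE 0.51), a call present in 13 of 17 fits without 1 library and at -1.20 without ND+veh replicate 6 (edgeR adjusted p = 0.114). Igfbp3, made largely by non-parenchymal cells in liver, had means of 5.01, 10.9 and 1.96 CPM. It was lower in HFD+eRapa than HFD+veh by -2.48 (edgeR adjusted p = 0.00069, SE 0.47), and by -1.11 with the immune score as a covariate (0.062). Igf1r, the IGF1 receptor, is low in hepatocytes, and its means of 1.16, 2.00 and 0.986 CPM gave no call (log2 fold changes 0.78, -1.01 and -0.23, edgeR adjusted p = 0.26, 0.12 and 0.83).

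Igfbp5 and Irs2 were chosen after their values were seen. For them and Igfbp2, 3 of 11 genes tested in the IGF list, HFD+veh and ND+veh libraries did not overlap, beside 2.44% of all genes. Igfbp5 was 0 to 0.801 CPM in ND+veh, 5.23 to 14.4 in HFD+veh and 1.53 to 7.63 in HFD+eRapa, with log2 fold changes of 4.74 (edgeR adjusted p = 8.0e-07, SE 0.47), -1.75 (SE 0.39, 0.0022) and 2.99 (SE 0.43, 4.7e-05). Irs2, an adaptor of the insulin and IGF1 receptors, was 20.1 to 57.4, 4.77 to 15.7 and 8.20 to 44.1 CPM. It fell in HFD+veh by -2.08 (edgeR adjusted p = 0.00018, SE 0.32) and was higher in HFD+eRapa than HFD+veh by 1.18 (SE 0.31, 0.0062). With the immune score as a covariate Irs2 was still called in HFD+veh (-2.15), and so was Igfbp5.

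Many genes with sex-biased liver expression are known targets of pulsatile growth hormone and STAT5b, and 2 lists of them were followed. Like the lists above, these lists were chosen with earlier results of these data known. Some of their genes are nearly identical copies, so counts of called genes are descriptions and not independent tests. Of 24 male-biased genes 23 were tested. In HFD+veh 0 were called higher and 12 lower than in ND+veh (median log2 fold change -1.06), beside 16.0% of all genes called higher and 9.86% lower. In HFD+eRapa 19 were called higher and 0 lower than in HFD+veh (median 3.01), beside 10.9% of all genes called higher and 21.1% lower. The libraries of 11 genes did not overlap in that comparison, beside 2.59% of all genes. Against ND+veh 11 were higher in HFD+eRapa and 0 lower (median 0.91), beside 6.93% of all genes called higher and 6.54% lower. Here the libraries of Mup1 and Mup11 did not overlap, beside 3.37% of all genes. DESeq2 called 13 lower, 20 higher and 14 higher, with 0 in the other direction, and at an unadjusted edgeR p under 0.05 there were 14, 19 and 14 genes in both directions together. With the immune score as a covariate 8 were called lower and 1 higher in HFD+veh, and 15 higher and 0 lower in HFD+eRapa relative to HFD+veh. The fit with this covariate also called fewer of all genes, as given in a later section. The shares of all genes above belong to the main edgeR fit. They do not apply to the counts from DESeq2, from unadjusted p or from the covariate fit.

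Slco1a1, a transporter of organic anions, was 95.7 to 565 CPM in ND+veh, 1.98 to 26.4 in HFD+veh and 199 to 732 in HFD+eRapa, so that HFD+veh lay below all other libraries. Its log2 fold changes were -5.41 (edgeR adjusted p = 2.5e-06, SE 0.58) and 5.80 (edgeR adjusted p = 2.1e-06, SE 0.59), with 0.39 between HFD+eRapa and ND+veh (0.64). Hsd3b5, a male-specific steroid dehydrogenase, had 18 counts in all HFD+veh libraries together, beside 6955 in ND+veh and 20262 in HFD+eRapa, and log2 fold changes of -8.40 (edgeR adjusted p = 0.00032, SE 1.37) and 9.98 (SE 1.41, 5.2e-05). Cspg5 stayed under 2 CPM and changed by -3.42 (edgeR adjusted p = 0.0030) and 3.47 (0.0016), or by -4.11 and 4.17 without HFD+veh replicate 5.

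The list held 7 tested major urinary protein genes, which encode secreted carriers. Mup1, Mup7 and Mup11 were named by rule for large rises in HFD+eRapa. Their highest mean in that group largely follows from this choice. Of the others, Mup3, Mup12 and Mup21 also had their highest mean in HFD+eRapa, at 8311, 9.10 and 361 CPM. Mup20, chosen after its values were seen, did not, with means of 4937, 3587 and 4473 CPM in ND+veh, HFD+veh and HFD+eRapa and a log2FC of -0.14 between HFD+eRapa and ND+veh (edgeR adjusted p = 0.84). Mup7 had means of 26.4 ± 32.5 CPM in ND+veh, 2.78 ± 3.96 in HFD+veh and 549 ± 541 in HFD+eRapa. Its log2 fold change was 7.65 in HFD+eRapa relative to HFD+veh (edgeR adjusted p = 0.00031, SE 1.29) and 4.38 against ND+veh (SE 1.03, 0.0053). Mup11 (4.45, 0.716 and 159 CPM) exceeded HFD+veh by a log2FC of 7.81 in HFD+eRapa (edgeR adjusted p = 3.6e-05) and ND+veh by 5.15 (0.00021). Mup1 (0.469, 1.26 and 15.1 CPM) exceeded them by 3.59 (0.00071) and 5.01 (3.8e-05). The falls of Mup7 (-3.27, edgeR adjusted p = 0.030) and Mup11 (-2.65, 0.036) in HFD+veh were each called in 9 of 15 fits without 1 library, with -4.33 for Mup7 without HFD+veh replicate 7 and -1.98 for Mup11 without ND+veh replicate 2. Without these libraries the Mup7 value relative to HFD+veh was 8.71 and the Mup11 value against ND+veh was 5.82. Mup genes are nearly identical copies, so counts of single members are uncertain. In mean FPKM (ND+veh, HFD+veh and HFD+eRapa) Mup11 was 37.8, 18.7 and 283, and Mup1 was 7.96, 3.59 and 98.4. The sizes of these changes, and the direction for Mup1 in HFD+veh, therefore depend on the measure.

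**Figure D4:**
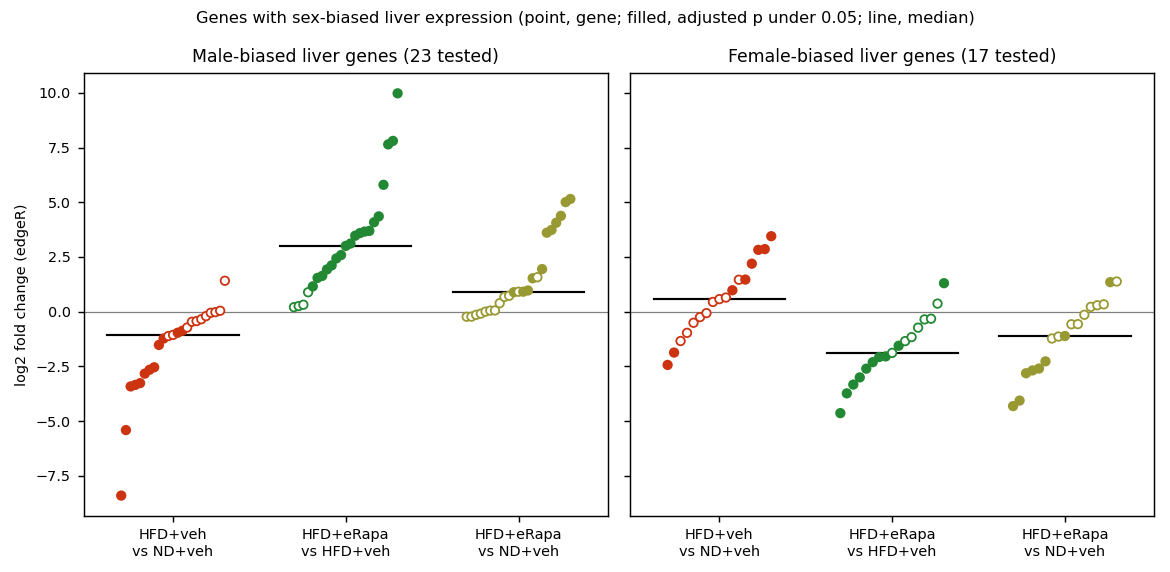
Log2 fold changes (edgeR) of the 23 male-biased (left) and 17 female-biased (right) liver genes tested in 3 comparisons, 1 point per gene, filled for an adjusted p under 0.05, with the median as a line. The male-biased medians are -1.06, 3.01 and 0.91 and the female-biased medians 0.57, -1.88 and -1.11.

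Of 26 female-biased genes 17 were tested. In HFD+veh 6 were called higher and 2 lower than in ND+veh (median 0.57), beside 16.0% of all genes called higher and 9.86% lower. In HFD+eRapa 1 was higher and 9 lower relative to HFD+veh (median -1.88), beside 10.9% and 21.1%. Against ND+veh 1 was higher and 7 lower in HFD+eRapa (median -1.11), beside 6.93% and 6.54%. Cyp2b9, a female-biased cytochrome P450, was 1.25 to 81.5 CPM in ND+veh, 109 to 218 in HFD+veh and 2.16 to 50.03 in HFD+eRapa, and HFD+veh lay above all other libraries. Its log2 fold changes were 2.19 (edgeR adjusted p = 0.037, SE 0.76), called in 8 of 15 fits without 1 library, and -3.33 (edgeR adjusted p = 0.0029, SE 0.76), called in all 16. Cyp2b13 (0.465, 3.50 and 0.560 CPM) changed by 2.83 (edgeR adjusted p = 0.038) and -2.60 (0.038). These calls were present in 6 of 15 and 7 of 16 fits without 1 library, and the values were 4.57 without ND+veh replicate 4 and -3.37 without HFD+eRapa replicate 1. A1bg (0.401, 2.91 and 0.353 CPM) changed by 2.86 (0.0031) and -3.00 (0.0012).

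Mean CPM was also highest in HFD+veh for Cyp2a4, Hao2 and Atp6v0d2, but not for Cyp39a1, Cyp2c40, Slc22a26, Ntrk2 and Tox. HFD+veh against ND+veh was not called for Cyp2a4 (log2FC 0.57, edgeR adjusted p = 0.70) or Hao2 (1.46, 0.061). In ND+veh Cyp2a4 was 0.511, 25.8 and 570 CPM (lowest, median, highest). Cyp39a1, an oxysterol hydroxylase, was 67.0 ± 17.3 CPM in ND+veh, 47.2 ± 9.58 in HFD+veh and 9.54 ± 7.15 in HFD+eRapa, and was lower in HFD+eRapa than HFD+veh by -2.31 (edgeR adjusted p = 0.00010, SE 0.35) and than in ND+veh by -2.81 (SE 0.35, 9.1e-06). Cyp2a4 was lower by -4.64 (edgeR adjusted p = 0.0036) and -4.06 (0.011), the latter being -2.17 (0.101) without ND+veh replicate 4. Hao2 was lower by -3.73 (0.00021) and -2.27 (0.011). Cyp2c40 and Slc22a26 fell in HFD+veh by -2.43 (edgeR adjusted p = 0.019, or -3.28 without HFD+veh replicate 2) and -1.87 (0.017) and were below ND+veh in HFD+eRapa by -4.31 (0.00032) and -2.60 (0.0012). Ntrk2 was higher in HFD+veh (0.98, 0.032, called in 9 of 15 fits without 1 library) and in HFD+eRapa (1.35, 0.0050) than in ND+veh. Atp6v0d2, a proton pump subunit also used by macrophages, rose by 3.45 (0.00076) and was lower in HFD+eRapa by -2.07 (0.0084), and with the immune score as a covariate these values were 1.98 and -0.57. Without HFD+veh replicate 6 they were 2.47 and -1.09, the latter no longer called (edgeR adjusted p = 0.099). Tox, a nuclear factor also used by lymphocytes, was higher in HFD+eRapa than HFD+veh by 1.30 (0.014). Cyp2a4, Cyp2b9, Cyp2b13, Cyp2c40 and Slc22a26 have close copies in the genome and their separate counts are uncertain. The mean FPKM of Cyp2c40 was 20.4, 7.96 and 7.91 in ND+veh, HFD+veh and HFD+eRapa.

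Across the 24 libraries, 7821 genes with a mean log2 CPM of at least 3 were ranked by the correlation of their log2 CPM with 3 members. Genes with the profile most like that of Igf1 were Sucla2 (Pearson's r = 0.890), Osgepl1 (0.889) and Fh1 (0.882). Most like Cish were Phlda1 (0.821), Arid5b (0.798) and Onecut1 (0.784), and most like Ghr were Cmah (0.926), Pank1 (0.921) and Mup3 (0.917). After removal of group means the same pairs correlated at 0.740 to 0.764, 0.737 to 0.751 and 0.872 to 0.897. ND+veh replicate 4 was the lowest of its group for both Ghr (239 CPM) and Mup3 (540 CPM, beside a group median of 5852). The coefficients were not recomputed without that library. These libraries share groups and depth, and the coefficients are descriptions.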

How the data were processed

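The labels gave each library its group and number. The authors aligned polyA RNA reads to mm10 (Gencode M23) with STAR, filtered them with SAMtools 1.1.0, and deposited whole-number read counts per gene from HTSeq 0.11.2 and FPKM values from Cufflinks. The strand setting of the counting is not given in the sources used here. Coordinates are from Gencode M21 of GRCm38, the same assembly as mm10.

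Counts were tested with edgeR 4.0.16 in R 4.3.3 (filterByExpr, TMM, quasi-likelihood fit of all 24 libraries and 3 groups, Benjamini-Hochberg adjustment, called at an adjusted p under 0.05). The SE is the absolute log2 fold change over the square root of F. FPKM was tested with limma 3.58.1 on log2(FPKM + 1), for genes with a mean FPKM of at least 0.5, which understates changes of low genes. Marker scores are mean z-scores of log2 CPM (prior count 2) over tested markers. Other alternatives were DESeq2 1.42.0, its size factors in edgeR, other filters and pseudocounts, only the groups compared, a replicate block, marker covariates and leaving out libraries. The procedure was tested on simulated counts.

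Named genes were the 10 members, Jak2, Socs1, Socs3, Igfbp1, Igfbp2, Igfbp3 and Igf1r, the 3 called sex-biased genes of each list with the largest rise and fall in each comparison, and the 3 genes most like Igf1, Cish and Ghr. The members and lists were chosen with earlier results of these data known. Pairs of libraries of a group had a chi-square per degree of freedom of at least 11.3, so no such pair was a repeat of the same library. This value was not computed for pairs across groups, and it cannot tell whether separate libraries came from the same mouse. Depth limits low genes, and limits of 3 counts cover counting error only.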

Additional observations from a re-analysis of the deposited data

Results flagged for a closer look

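Of 30 groups of values checked (10 genes in 3 groups), 2 held a library set apart from the rest of its group by a gap over Dixon's critical value on the log2 CPM scale, where chance gives about 1.5. Ghr was 239 CPM in ND+veh replicate 4, beside 373 to 553 CPM in the other ND+veh libraries. That library was not set apart by Ghr alone. Igf1 (223 CPM), Prlr (28.2) and Igfals (50.1) were also at their ND+veh lowest there. Stat5a (18.8), Cish (60.6) and Cux2 (0.504) were at their ND+veh highest, with the remaining members in between. Its hepatocyte marker sum, 61237 CPM, was the lowest of ND+veh, and its TMM factor, 1.30, was the highest of all libraries. A cause was not tested. Bcl6 was 83.4 CPM in ND+veh replicate 1, beside 5.96 to 17.4 CPM in the others.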

How the results depend on the processing

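Low counts (Cux2, Socs1), libraries with other cell types and the HFD+veh spread limit these results. Of the values of members under alternatives, 344 kept their direction and side of the threshold, 34 lost a call, 7 gained a call and 22 changed sign, and the cause was not tested. Counts of called genes follow the order HFD+veh against ND+veh, HFD+eRapa against HFD+veh, and HFD+eRapa against ND+veh (the first, the second and the third comparison), and gene counts fall where fewer genes or samples entered.

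Over all genes 3584, 4432 and 1865 were called. The first count was 2333 with only the groups compared, 1189 with the immune score, 1628 with the stromal score, 2067 on log2(FPKM + 0.1), 1580 on unfiltered log2(FPKM + 1) and 2300 without ND+veh 4 and HFD+veh 6 (a choice made after seeing the data). The second was 2809 with at least 10 counts in every library, 913 and 729 with the immune and stromal scores, 2532 with the replicate block, and 2895 and 2840 on log2(FPKM + 0.1) and unfiltered log2(FPKM + 1). The third was 1118 on unfiltered log2(FPKM + 1). Without 1 library the counts were 2106 to 4479, 3269 to 5061 and 1462 to 1806.

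Of members, 4, 4 and 1 were called. The first count was 2 with the immune score and 1 in each of 3 FPKM fits and without both libraries. The second was 1 and 2 with the immune and stromal scores and 2 in each FPKM fit. The third was 2 with the replicate block, in both filtered FPKM fits and without both libraries. Without 1 library the counts were 2 to 4, 3 to 5 and 1 to 2.

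Of machinery genes, 9, 10 and 0 were called. The first count was 5 without a filter, 0 and 1 with the immune and stromal scores, 5 with the replicate block, 4 and 3 on log2(FPKM + 1) and log2(FPKM + 0.1), 2 on unfiltered FPKM and 3 without both libraries. The second was 0 with each score and 5 on unfiltered FPKM, and the third 2 with the stromal score. Without 1 library they were 4 to 10, 7 to 13 and 0 to 1. Of IGF axis genes, 5, 6 and 5 were called. The second was 2 with the stromal score. The third was 1 without a filter, 3 with the stromal score, 1 with the replicate block, 2 in both filtered FPKM fits and 1 on unfiltered FPKM. Without 1 library they were 4 to 7, 5 to 8 and 1 to 5.

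Of male-biased genes, 12, 19 and 11 were called. With at least 10 counts in every library they were 7, 11 and 5, and the third was 7 in both filtered FPKM fits and 6 on unfiltered FPKM. Without 1 library they were 9 to 13, 19 and 8 to 13. Of female-biased genes, 8, 10 and 8 were called. The first was 4 without a filter, 3 with at least 10 counts, and 4 with either score, the second 4 with at least 10 counts, and the third 3 with at least 10 counts and 5 with the replicate block. Without 1 library they were 4 to 9, 8 to 12 and 7 to 8.

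Signs changed mainly for values near 0. Ghr was 0.041 in the first comparison with the stromal score. Prlr in the third ran from -0.23 to 0.0195 without 1 library and was 0.12 with the replicate block, 0.00019 on log2(FPKM + 1) filtered or not, 0.0051 on log2(FPKM + 0.1), 0.0195 without ND+veh 7 and 0.0088 without ND+veh 2. Bcl6 ran from -0.997 to 0.0695 in the first and from -0.602 to 0.508 in the third, the upper ends without ND+veh 1, and was -0.028 in the second with the stromal score. Socs2 in the third ran from -0.588 to 0.17, the latter without ND+veh 8. Igfals in the first was 0.0032 with DESeq2, 0.0033 with its size factors, 0.0103 with at least 10 counts, 0.55 and 0.44 with the immune and stromal scores, 0.0777 without both libraries, 0.14 without HFD+veh 6 and 0.026 without ND+veh 5, with a range of -0.291 to 0.142 without 1 library. It was -0.39 and -0.63 in the second with both scores and -0.19 in the third with the stromal score.

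Same-numbered libraries of different groups had mean correlations of 0.316, -0.245 and -0.203, and 5 of 7, 2 of 7 and 2 of 8 pairs exceeded 0.1. The main fit did not use the numbers as pairs, and so few pairs cannot exclude pairing. Under the replicate block Cish was not called in the first (edgeR adjusted p = 0.079) or second comparison (0.18), and Ghr was called in the third (0.040). The FPKM + 0.1 fit moved the median of all genes in the third comparison to -0.11.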

Other observations

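Counts and FPKM of the same libraries gave different sizes for some members. Igf1 in HFD+veh against ND+veh was 0.62 on counts and 0.29 on log2(FPKM + 1), while Ghr in HFD+eRapa against HFD+veh was 0.51 and 0.46. For Cux2, HFD+eRapa replicate 3 had 0 counts and an FPKM of 0.266, whereas ND+veh replicate 4 had 16 counts and an FPKM of 0.101. The reason was not tested.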
